A study of Mus musculus with 4 samples.

Results

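The transcription factors that set dendritic cell identity were followed here across the cell classes of a single-cell RNA data set. The set holds 10 genes, Zbtb46, Batf3, Irf4, Irf8, Spi1, Id2, Klf4, Zeb2, Nfil3 and Bcl6, chosen by name from the 32289 gene rows of both count matrices, and all 10 were found. The cells came from the mesenteric lymph nodes of 12 untreated mice of 15 days of age that carry the Gm38411-iCre-hCD2 cassette and the R26 tdTomato reporter; all groups below share this genotype. In such animals the cassette encodes a Cre recombinase and human CD2 (hCD2), a surface reporter, and tdTomato stays on in any cell that has once recombined, so that it records past activity of the cassette and the descent of a cell from one that had it. The sorted cells were CD11c+ MHC-II+ tdTomato+ and lacked CD3 and B220, and were split into an hCD2+ and an hCD2- fraction. All 12 mice, each under its own hashtag, were pooled into 1 library per fraction, and an effect of the fraction and an effect of its library cannot be told apart.

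Conventional dendritic cells (cDC) arise from a bone marrow precursor and part into cDC1, which cross-present antigen to CD8 T cells, and cDC2, which mainly prime CD4 T cells. Plasmacytoid dendritic cells (pDC) make type I interferon. Both cDC branches can upregulate the chemokine receptor Ccr7 and migrate to lymph nodes, where they are seen as CCR7+ migratory dendritic cells. PU.1, encoded by Spi1, is an ETS factor of myeloid and dendritic cells that pairs on DNA with IRF4 or IRF8. Irf8 is required for cDC1 and Irf4 for cDC2 function, Batf3 maintains Irf8 in cDC1, and Zbtb46 is a zinc finger factor long used as a mark of the conventional lineage. Id2 blocks E proteins such as Tcf4, the factor of pDC, and is needed by innate lymphoid cells too. Zeb2 is a repressor needed for pDC and cDC2, Nfil3 acts against Zeb2 on the way to cDC1 and is also needed for innate lymphoid cells, Klf4 serves a subset of cDC2, and Bcl6 is a repressor active in cDC1 and in T follicular helper cells. Group 3 innate lymphoid cells (ILC3) are lymphocytes without antigen receptors that include the lymphoid tissue inducer (LTi) cells.

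After filtering, 7099 hCD2+ cells (median 17486 unique molecular identifiers, UMIs, 365 to 897 cells per mouse) and 4762 hCD2- cells (median 23846 UMIs, 234 to 592 cells per mouse) were kept. The 2 libraries shared 20 called barcodes, 0.227% of the hCD2+ and 0.357% of the hCD2- called cells. Cells fell into 25 clusters, and classes were named from marker genes that hold none of the 10 factors, which were also kept out of the genes used for clustering. The cDC1-like class (cluster 14) had 10 of 10 markers elevated, the pDC-like class (cluster 15) 10 of 10, the cDC2-like class (cluster 7) 7 of 10, and the CCR7 DC-like class 9 in cluster 11 and 7 in cluster 10. The ILC3 or LTi-like class (clusters 0, 1, 2 and 8) had 7 to 8 of 10. The Prdm16 or Aire DC-like class, the population the study is about, had 5 of 10 in cluster 6, 6 of 10 in cluster 5 (beside 5 CCR7 markers) and 4 of 10 in cluster 3. The sort gate asks for CD11c and MHC-II and excludes CD3 and B220. The ILC3 or LTi-like, T cell-like and pDC-like clusters among its cells are therefore called by their transcripts alone. Levels are CPM (UMI counts scaled to 1000000 per sum) of sums per mouse, given as mean ± SD over mice with at least 10 cells of the class. Taken as 1 value per cluster, Prdm16 stood at 3215 CPM in cluster 6, 1960 in cluster 5 and 105 in cluster 3. Aire stood at 16.9, 587 and 146 CPM in that order. Cluster 13, left without a class, had 1147 CPM of Prdm16 and 28.0 of Aire. Of 208 hCD2- cells named Prdm16 or Aire DC-like, 192 lay in cluster 3, so that hCD2- levels under this name mostly describe cluster 3. Free RNA was bounded from droplets of 10 to 100 UMIs at 0.246% to 1.23% of a class's UMIs.

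Promoters of 4 of the factors are shown because Zbtb46 and Batf3 followed each other across classes, and Irf4 and Irf8 parted the cDC2-like and cDC1-like classes. RefSeq windows of 250 bases before to 50 after the start (GRCm38.p6) matched 9 of the 10 factors; Spi1 is named only. Capitals mark matches, on either strand, to 8 motifs searched, namely GAGGAAG (an ETS core with flanks), GGAA and GAAA 2 bases apart (ETS-IRF composite), GAAA and GAAA 2 bases apart (interferon-stimulated response element), TGANTCA (AP-1), TTCCTNGAA (BCL6), TTANGTAA (NFIL3), CACCTG (the E-box of ZEB factors) and CCACNCCC (KLF). The composite and the response element can overlap each other.
Zbtb46, chr2:181424339-181424638, minus strand: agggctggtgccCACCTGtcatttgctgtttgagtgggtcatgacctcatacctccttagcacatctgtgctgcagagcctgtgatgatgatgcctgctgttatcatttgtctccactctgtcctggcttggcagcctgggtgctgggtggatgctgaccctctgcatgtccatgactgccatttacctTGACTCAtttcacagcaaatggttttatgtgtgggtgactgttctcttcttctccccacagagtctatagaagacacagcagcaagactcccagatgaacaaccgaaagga
Batf3, chr1:191098164-191098463, plus strand: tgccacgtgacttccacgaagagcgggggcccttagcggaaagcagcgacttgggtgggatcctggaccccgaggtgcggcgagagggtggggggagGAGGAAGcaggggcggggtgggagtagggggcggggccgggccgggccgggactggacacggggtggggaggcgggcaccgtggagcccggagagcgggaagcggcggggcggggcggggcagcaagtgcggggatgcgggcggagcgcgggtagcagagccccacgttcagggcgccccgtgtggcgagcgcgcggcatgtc
Irf4, chr13:30748983-30749282, plus strand: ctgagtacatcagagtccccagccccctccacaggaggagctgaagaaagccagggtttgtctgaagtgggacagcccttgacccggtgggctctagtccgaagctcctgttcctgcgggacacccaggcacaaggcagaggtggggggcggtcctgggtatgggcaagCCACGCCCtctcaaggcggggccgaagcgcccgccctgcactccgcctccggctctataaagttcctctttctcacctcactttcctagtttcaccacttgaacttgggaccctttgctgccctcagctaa
Irf8, chr8:120736108-120736407, plus strand: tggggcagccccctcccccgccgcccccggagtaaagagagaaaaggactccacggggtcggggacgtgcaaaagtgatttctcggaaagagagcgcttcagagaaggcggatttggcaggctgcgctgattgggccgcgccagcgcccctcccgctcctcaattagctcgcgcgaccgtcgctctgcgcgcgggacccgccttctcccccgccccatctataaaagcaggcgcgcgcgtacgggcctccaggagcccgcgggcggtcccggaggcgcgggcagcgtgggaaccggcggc

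The Zbtb46 window held an AP-1 match at -61 and a CACCTG at -238 from the start. That RefSeq start lies inside the longer GENCODE span of the gene (chromosome 2, 181387762 to 181459426). The Batf3 window held the ETS core at -153, and the Irf4 window a KLF match at -81. The Irf8 window shown held none of the 8 motifs. Among all 32851 promoter windows, 7.81% held TGANTCA, 20.2% CACCTG, 13.6% GAGGAAG, 17.6% CCACNCCC, 2.72% the ETS-IRF composite, 3.44% the interferon-stimulated response element, 1.59% TTCCTNGAA and 2.32% TTANGTAA. A match is a run of letters and no evidence of binding.

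Of the dendritic, pDC-like and ILC3 or LTi-like classes, the CCR7 DC-like class had the highest Zbtb46 and Batf3, and the ILC3 or LTi-like class stood above the cDC2-like level. Orders of level are given over these 11 class and fraction groups, without the T cell-like, NK or ILC1-like, stromal-like and monocyte or macrophage-like cells, and neighbours are called apart only where their means differ by more than the larger of their SDs. Zbtb46 stood at 378 ± 50.6 CPM in hCD2+ and 441 ± 46.2 CPM in hCD2- CCR7 DC-like cells (n = 12 mice each). The Prdm16 or Aire DC-like class had 278 ± 15.7 CPM in hCD2+ and 314 ± 39.0 CPM in hCD2- cells (n = 12 and 10), and ILC3 or LTi-like cells had 288 ± 28.6 and 356 ± 72.1 CPM (n = 12 each). Those 4 groups and the hCD2+ CCR7 DC-like cells followed each other without a gap beyond their spread. The cDC2-like cells had 198 ± 22.7 CPM in the hCD2+ and 179 ± 18.1 CPM in the hCD2- fraction (n = 7 and 12) and the cDC1-like cells 170.1 ± 53.7 and 174 ± 47.1 CPM (n = 3 and 11), again with no gap between them. The pDC-like cells came last of the 11 groups at 10.01 ± 6.65 CPM (n = 5), and T cell-like cells, outside this order, had 6.14 ± 3.07 CPM in the hCD2+ and 6.76 ± 3.24 CPM in the hCD2- fraction. Batf3 was highest of the 11 groups in hCD2- CCR7 DC-like cells at 228 ± 18.8 CPM and lowest in pDC-like cells at 2.74 ± 4.71 CPM, with 162 ± 14.1 CPM in the hCD2+ cells of the Prdm16 or Aire DC-like class and 139 ± 9.79 CPM in those of the ILC3 or LTi-like class.

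The Zbtb46 and Batf3 signal of the ILC3 or LTi-like cells was well above that of T cell-like cells. NK or ILC1-like hCD2- cells lay between them, with 67.3 ± 17.7 CPM of Zbtb46 and 60.7 ± 11.2 CPM of Batf3 (n = 12 mice). Cells of at least 5000 UMIs were thinned to 5000 and the 1564 shallower ones left out, while shares before thinning cover all cells of a class. After thinning, 62.7% (95% Wilson interval 61.0% to 64.4%, 87.3% before thinning) of hCD2+ ILC3 or LTi-like cells had a Zbtb46 UMI. The share was 3.14% (95% Wilson interval 1.72% to 5.69%, 8.67% before thinning) of hCD2+ T cell-like cells. For Batf3 the shares were 44.4% (95% Wilson interval 42.6% to 46.1%; 74.6% before thinning) of ILC3 or LTi-like and 1.26% (95% Wilson interval 0.490% to 3.19%; 3.18% before thinning) of T cell-like cells. Median depths before thinning were 16700.5 and 16494 UMIs. Free RNA allowed at most 1.01% of the Zbtb46 and 0.878% of the Batf3 level of the ILC3 or LTi-like cells. For Irf4, by contrast, the share was 0.429% (95% Wilson interval 0.251% to 0.733%; 1.31% before thinning) of ILC3 or LTi-like and 12.9% (95% Wilson interval 9.65% to 17.0%; 26.9% before thinning) of T cell-like cells, and free RNA could supply up to 41.3% of the ILC3 or LTi-like level. Intervals cover counting error only.

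**Figure D1:**
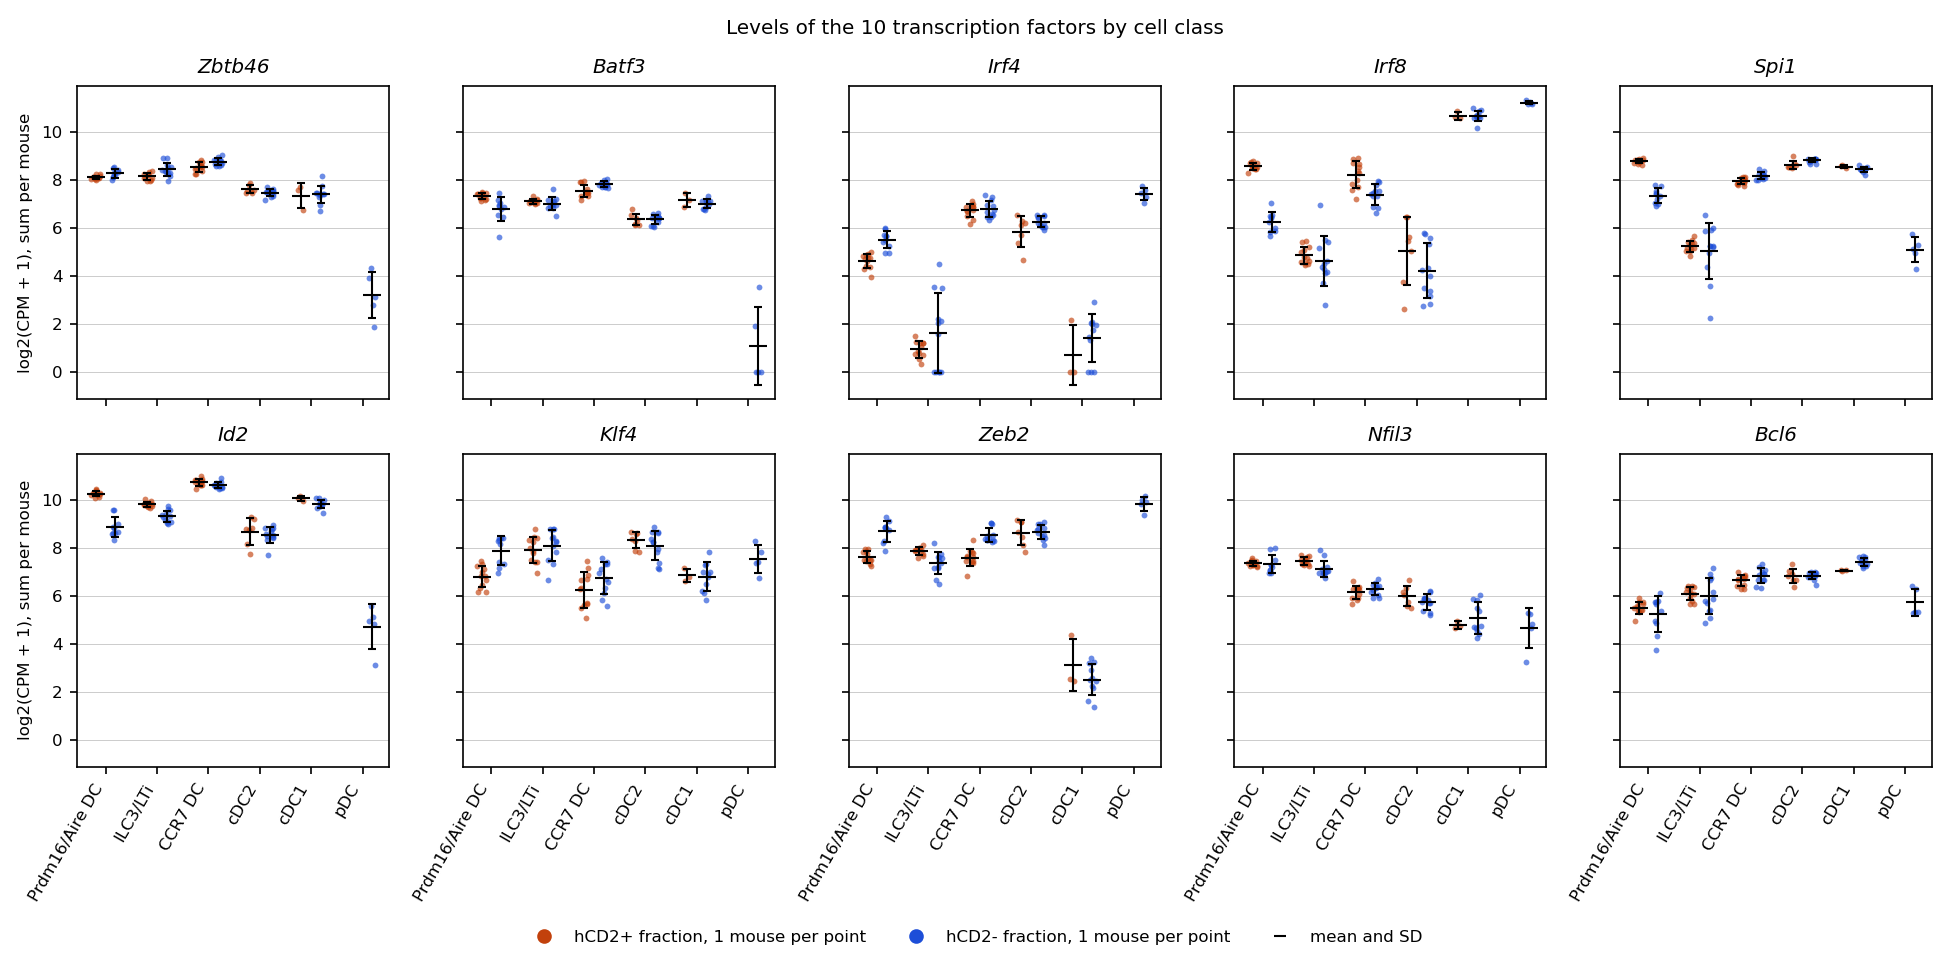
Level of each of the 10 factors as log2(CPM + 1), 1 point per mouse with at least 10 cells of the class, by class and fraction, with the mean and SD as bars. Zbtb46 and Batf3 are highest in the CCR7 DC-like class, above the cDC2-like level in the ILC3 or LTi-like class and near the floor in pDC-like cells. Irf8 is highest in pDC-like and cDC1-like cells, and Zeb2 is lowest in cDC1-like cells.

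Across 15 class and fraction groups the class means of Zbtb46 and Batf3 had a Pearson r of 0.971 on the log2(CPM + 1) scale, those of Batf3 and Id2 0.959 and those of Zbtb46 and Id2 0.912. The groups share mice and 2 libraries, so that these values are a description. Among genes other than the 10 factors, the one most like Zbtb46, Batf3 and Id2 alike was Cd83, a surface molecule of mature dendritic cells, with r of 0.952, 0.970 and 0.936. Zbtb46 was next followed by Trip10 (0.945) and Ttc8 (0.928), and Spi1 by Csf2ra (0.970), the GM-CSF receptor alpha chain. Irf4 was most like Il21r (0.935), the interleukin-21 receptor, Irf8 like Rab10 (0.843), Klf4 like Tusc1 (0.912), Nfil3 like Slc35b4 (0.939) and Bcl6 like Fgl2 (0.951). Zeb2 was most like Zeb2os (0.896), its antisense neighbour, whose reads cannot be told apart from those of Zeb2 where counting ignores strand.

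Irf8 and Spi1 separated the dendritic classes from ILC3 or LTi-like cells in part. In the same 11 groups Irf8 was highest in pDC-like cells (2418 ± 108 CPM) and then in cDC1-like cells (1657 ± 187 CPM in hCD2+ and 1662 ± 240.1 CPM in hCD2- cells), with cDC2-like and ILC3 or LTi-like cells lowest and within each other's spread. Outside these groups Irf8 was at 301 ± 67.4 CPM in hCD2- NK or ILC1-like cells (n = 12 mice), above the cDC2-like level. T cell-like cells had 44.8 ± 52.4 (hCD2+) and 41.7 ± 18.1 CPM (hCD2-) of Irf8. Spi1 was highest in hCD2- cDC2-like (457 ± 23.3 CPM), hCD2+ Prdm16 or Aire DC-like and hCD2+ cDC2-like cells, and lowest in ILC3 or LTi-like and pDC-like cells; outside these groups it was at 478 ± 96.5 CPM in monocyte or macrophage-like cells of the hCD2+ fraction and at 3.49 ± 2.39 (hCD2+) and 7.79 ± 2.96 CPM (hCD2-) in T cell-like cells. Nfil3 was highest in hCD2+ ILC3 or LTi-like cells (175 ± 18.9 CPM) and in the Prdm16 or Aire DC-like cells of the hCD2+ (163 ± 13.7 CPM) and hCD2- fraction (164 ± 48.1 CPM), with no gap beyond the spread. Bcl6 had its lowest levels in those Prdm16 or Aire DC-like cells, 45.1 ± 7.52 and 40.7 ± 18.0 CPM, and its highest in hCD2- cDC1-like cells at 172 ± 19.8 CPM. Below those cDC1-like cells its order showed no gap beyond the spread, with pDC-like cells at 55.4 ± 22.7 CPM next above the lowest levels. Klf4 showed no gap beyond the spread anywhere in its order, which led from 326 ± 72.8 CPM in hCD2+ cDC2-like cells down to 84.4 ± 43.2 CPM in hCD2+ CCR7 DC-like cells. Zeb2 was at 2312 ± 518 CPM in the monocyte or macrophage-like cells of 7 hCD2+ mice, above its level in pDC-like cells.

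The comparison of cDC1-like with cDC2-like hCD2- cells covers the branches for which these factors are best known. Irf8, Id2, Batf3 and Bcl6 were higher and Zeb2, Irf4, Klf4, Nfil3 and Spi1 lower in cDC1-like cells. A gene counts as called at an adjusted p under 0.05 (edgeR quasi-likelihood test over sums per mouse, Benjamini-Hochberg over all genes tested); fold changes are log2 with their SE and scaled by TMM, and mice are counted by CPM among those with both groups. The classes were built from the same cells, so that these p-values measure the spread between mice of classes already set apart. The 9 of 10 factors called compare with 57.7% (28.8% higher, 28.9% lower) of the 9035 genes tested (median absolute log2 fold change 0.97 over the members and 0.34 over all genes tested). Irf8 lay at 1177 to 2082 CPM with a median of 1619 in 11 mice for cDC1-like cells, against 5.78 to 54.3 CPM with a median of 16.7 in 12 mice for cDC2-like cells. The groups did not overlap, and the log2 fold change was 6.16 ± 0.31, edgeR adjusted p = 9.44e-16, higher in 11 of 11 mice. Zeb2 lay at 1.61 to 9.54 CPM with a median of 4.60 in cDC1-like cells, against 277 to 534 CPM with a median of 409 in cDC2-like cells, with no overlap and a change of -6.15 ± 0.18, edgeR adjusted p = 2.93e-21, lower in 11 of 11 mice. Irf4, the partner of the cDC2 branch, had 0 to 6.59 CPM with a median of 2.34 in cDC1-like cells, against 59.6 to 93.0 CPM with a median of 73.4 in cDC2-like cells (-4.83 ± 0.21, edgeR adjusted p = 2.96e-17, lower in 11 of 11 mice). Of the low cDC1-like levels, free RNA could supply up to 28.1% for Zeb2 and 14.9% for Irf4.

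Batf3, without which mice lack most cDC1, differed far less than Irf8: 131 ± 17.1 CPM in cDC1-like and 82.4 ± 11.3 CPM in cDC2-like cells, without overlap (0.72 ± 0.08, edgeR adjusted p = 3.02e-08, higher in 11 of 11 mice). Id2 stood at 915 ± 115 CPM in cDC1-like and 382 ± 77.0 CPM in cDC2-like cells (1.31 ± 0.10, edgeR adjusted p = 8.04e-12, higher in 11 of 11 mice). Bcl6 was higher by 0.63 ± 0.08 and Spi1 lower, with a log2 fold change of -0.33 ± 0.05, both without overlap, with 351 ± 28.1 CPM of Spi1 in cDC1-like and 457 ± 23.3 CPM in cDC2-like cells. Klf4 had 119 ± 49.9 CPM in cDC1-like and 293 ± 112 CPM in cDC2-like cells (-1.23 ± 0.23, edgeR adjusted p = 3.50e-05, lower in 11 of 11 mice). Of 14 immediate early and heat shock genes, 1 was higher and 7 were lower in the same comparison, with summed levels of 4522 to 9093 CPM in cDC1-like and 4938 to 11447 CPM in cDC2-like cells; their part in the Klf4 difference was not tested. Nfil3, named as a cDC1 factor in the mouse, was lower in cDC1-like cells (-0.55 ± 0.20, edgeR adjusted p = 0.0185, lower in 9 of 11 mice). Zbtb46 gave -0.01 ± 0.10, edgeR adjusted p = 0.961, lower in 8 of 11 mice, which does not show that its levels are the same. Of 28 related regulators, 5 were higher and 16 lower of 24 tested. Mycl, a MYC family member of cDC1, was higher by 2.15 ± 0.10 and Rbpj, the mediator of Notch signals, by 0.76 ± 0.09. Runx2 was lower (-2.25 ± 0.11) on the log2 scale, and Spib, an ETS factor near to PU.1, had 3 UMIs in cDC1-like against 682 in cDC2-like cells, a ratio of pooled levels of 0.0102 (95% counting interval 0.00209 to 0.0299).

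**Figure D2:**
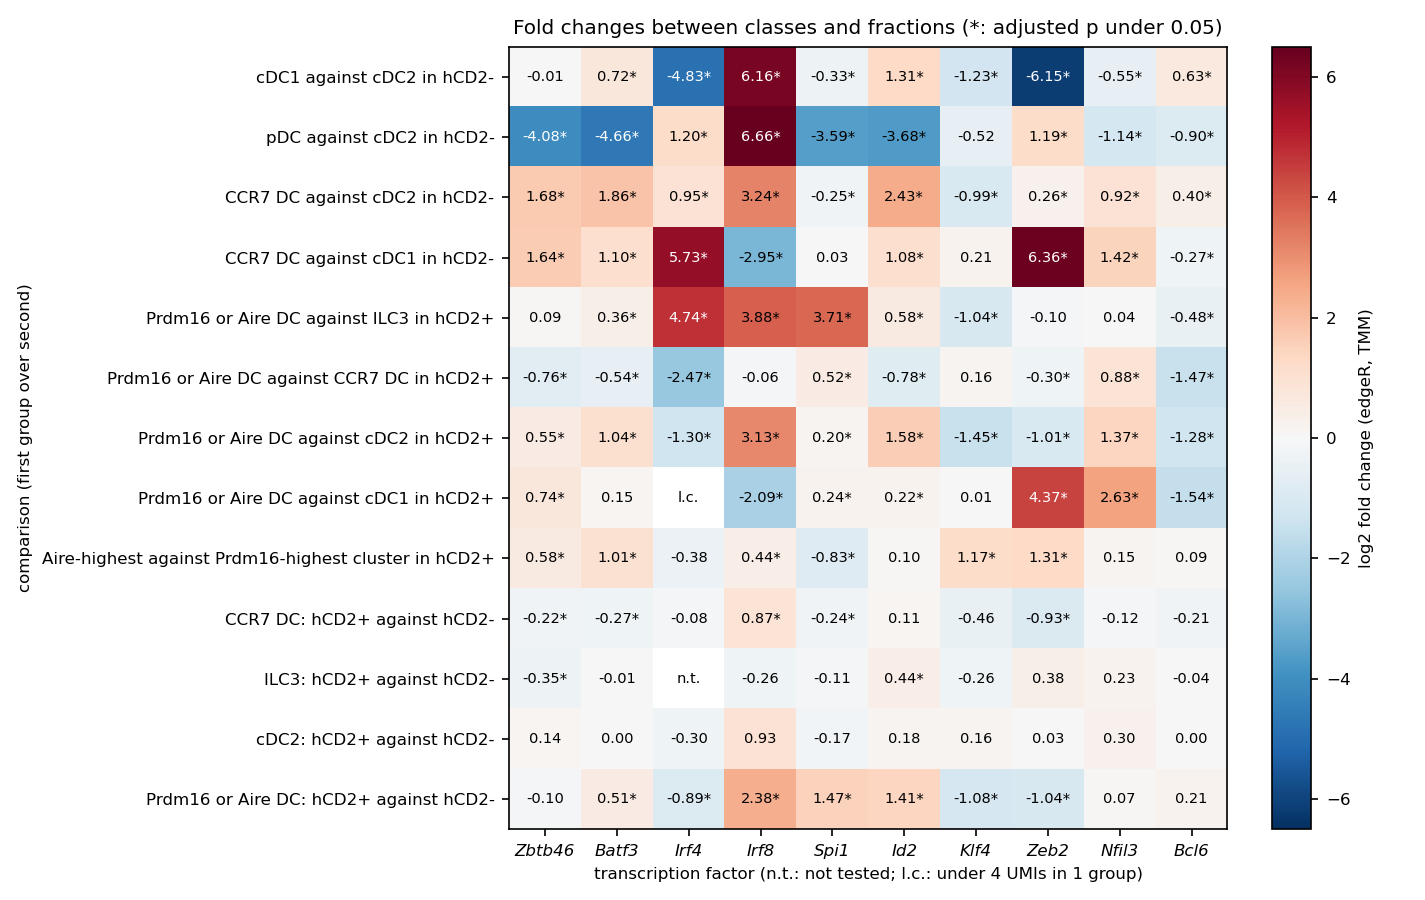
Log2 fold changes of the 10 factors (columns) in the 13 comparisons (rows), the first-named group over the second, with colour for sign and size and an asterisk for an edgeR adjusted p under 0.05. Comparisons between classes hold most of the large values, such as 6.16 for Irf8 and -6.15 for Zeb2 in cDC1-like against cDC2-like cells, and those between fractions are smaller, except for the Prdm16 or Aire DC-like class.

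pDC-like cells had more Irf8, Irf4 and Zeb2 than cDC2-like cells and less Zbtb46, Batf3, Spi1, Id2, Nfil3 and Bcl6. Against cDC2-like hCD2- cells, 3 of 10 factors were higher and 6 lower, where 52.5% (25.4% higher, 27.1% lower) of 9786 genes were called (median absolute log2 fold change 2.40 over the members and 0.53 over all genes tested). Irf8 was at 2321 to 2589 CPM with a median of 2377 in the 5 mice with enough pDC-like cells, against 5.78 to 54.3 CPM with a median of 16.7 in cDC2-like cells (6.66 ± 0.35, edgeR adjusted p = 1.79e-13, higher in 5 of 5 mice). Irf4 reached its highest level of all classes there, 175 ± 30.9 CPM, against 76.9 ± 12.2 CPM in cDC2-like cells (1.20 ± 0.14, edgeR adjusted p = 9.53e-08, higher in 5 of 5 mice), and Zeb2 had 930.1 ± 174 CPM, against 411 ± 81.6 CPM (1.19 ± 0.14, edgeR adjusted p = 1.30e-07, higher in 5 of 5 mice). Zbtb46 was lower (-4.08 ± 0.21), Batf3 (-4.66 ± 0.36), Spi1 (-3.59 ± 0.13) and Id2 (-3.68 ± 0.24) on the log2 scale, each without overlap and lower in 5 of 5 mice. Free RNA could supply up to 39.5% of the Batf3, 33.2% of the Id2 and 18.7% of the Zbtb46 level of pDC-like cells. Nfil3 was lower (-1.14 ± 0.29), but in thinned cells its edgeR adjusted p was 0.0538. Klf4 stood at 196 ± 77.4 CPM in pDC-like and 293 ± 112 CPM in cDC2-like cells. It gave -0.52 ± 0.31, edgeR adjusted p = 0.164, lower in 5 of 5 mice. With the mouse as a block, a fit over only the 5 mice with both classes, its edgeR adjusted p was 5.84e-04. Without the pDC-like sum of hashtag 12, with all cDC2-like sums kept, Klf4 passed without the block too (-0.88, edgeR adjusted p = 0.0449). Among the related regulators, 12 were higher and 11 lower of 25 tested. Tcf4, the E protein that sets pDC identity, was higher by 4.14 ± 0.12 and its relative Tcf12 by 3.24 ± 0.07, while Etv3 was lower (-2.63 ± 0.17) and the NF-kappaB subunit gene Rel (-1.59 ± 0.12).

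CCR7 DC-like hCD2- cells had more Zbtb46, Batf3 and Id2 than either resident-type class. Levels of total UMIs and fold changes are on scales that differ here: without TMM the median log2 fold change of all genes was -0.43 against cDC2-like and -0.33 against cDC1-like cells, while with TMM it was -0.05 and -0.03, so that fold changes are relative to the TMM baseline. Against cDC2-like cells 8 factors were higher and 2 lower, where 78.5% (37.3% higher, 41.2% lower) of 9362 genes were called (median absolute log2 fold change 0.97 over the members and 0.62 over all genes tested). Zbtb46 lay at 386 to 534 CPM with a median of 438, against 143 to 211 CPM with a median of 183 in cDC2-like cells, without overlap (1.68 ± 0.06, edgeR adjusted p = 4.35e-20, higher in 12 of 12 mice). Id2 was higher by 2.43 ± 0.09, Batf3 by 1.86 ± 0.07 and Irf8 by 3.24 ± 0.30, each without overlap and higher in 12 of 12 mice. Irf4 was higher by 0.95 ± 0.12, Nfil3 by 0.92 ± 0.11 and Bcl6 by 0.40 ± 0.10, with overlapping groups, and Bcl6 had 116 ± 24.6 CPM in CCR7 DC-like and 114 ± 11.6 CPM in cDC2-like cells, higher in 6 of 12 mice. The Bcl6 call was lost without TMM (0.02, edgeR adjusted p = 0.875) and in thinned cells (0.15, edgeR adjusted p = 0.22). Zeb2 was called higher (0.26 ± 0.12, edgeR adjusted p = 0.0457, CPM higher in 4 of 12 mice), but turned to -0.13 without TMM (edgeR adjusted p = 0.297) and did not pass without the filter on low counts (edgeR adjusted p = 0.0788) or in thinned cells (edgeR adjusted p = 0.246). Klf4 was lower (-0.99 ± 0.23, edgeR adjusted p = 3.13e-04, lower in 12 of 12 mice) and Spi1 lower, with a log2 fold change of -0.25 ± 0.05. Immediate early and heat shock genes were 3 higher and 8 lower of 14 here, with summed levels of 3713 to 8486 CPM in CCR7 DC-like and 4938 to 11447 CPM in cDC2-like cells, and their part in the Klf4 difference was not tested.

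Against cDC1-like cells 6 factors were higher and 2 lower in CCR7 DC-like hCD2- cells, where 79.1% (38.5% higher, 40.7% lower) of 8655 genes were called (median absolute log2 fold change 1.26 over the members and 0.76 over all genes tested). The same CCR7 DC-like sums serve both comparisons. Zeb2 and Irf4 were the factors furthest apart: Zeb2 had 377 ± 86.1 CPM in CCR7 DC-like and 5.22 ± 2.63 CPM in cDC1-like cells (6.36 ± 0.18, edgeR adjusted p = 3.85e-22, higher in 11 of 11 mice), and Irf4 was higher by 5.73 ± 0.24. Zbtb46 was higher by 1.64 ± 0.11, Batf3 by 1.10 ± 0.07, Id2 by 1.08 ± 0.07 and Nfil3 by 1.42 ± 0.18. Irf8 was lower (-2.95 ± 0.13, edgeR adjusted p = 1.56e-17, lower in 11 of 11 mice) and Bcl6 lower (-0.27 ± 0.10) on the log2 scale. The Bcl6 call was lost with RLE size factors, with DESeq2, without the filter on low counts and with at least 20 cells per mouse (adjusted p 0.0639, 0.105, 0.125 and 0.188 in that order). Spi1 gave 0.03 ± 0.07 (edgeR adjusted p = 0.645), but -0.26 without TMM (edgeR adjusted p = 0.000303) and -0.24 in cells thinned to 5000 UMIs (edgeR adjusted p = 0.0236), and its CPM was lower in 11 of 11 mice. Klf4 gave 0.21 ± 0.23, edgeR adjusted p = 0.421, CPM higher in 4 of 11 mice. Of the related regulators, 17 were higher and 7 lower of 25 tested against cDC2-like cells, and 18 were higher and 5 lower of 25 tested against cDC1-like cells. Relb, the NF-kappaB subunit of dendritic cell maturation, was higher by 2.21 ± 0.06 and 3.75 ± 0.10 in the 2 comparisons. Against cDC2-like cells Etv3, an ETS repressor, was higher by 2.67 ± 0.08, and Runx3 (-1.62 ± 0.08) and Mycl (-3.44 ± 0.18) were lower. Against cDC1-like cells Runx2 (3.31 ± 0.10) was higher, and Mycl (-5.62 ± 0.17) and Runx1 (-1.87 ± 0.11) were lower.

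The CCR7 DC-like class held clusters with unlike factors. Cluster 10 had 646 ± 201 CPM of Irf8 in 10 hCD2+ mice and 596 ± 60.6 CPM in 5 hCD2- mice, and cluster 11 had 116 ± 53.2 CPM in hCD2+ and 108 ± 33.2 CPM in hCD2- cells (n = 12 each). Irf4 went the other way, with 31.1 ± 19.6 (hCD2+) and 19.4 ± 12.3 CPM (hCD2-) in cluster 10 and 163 ± 34.5 (hCD2+) and 133 ± 31.5 CPM (hCD2-) in cluster 11. Zeb2 was at 26.5 ± 20.6 (hCD2+) and 45.0 ± 13.5 CPM (hCD2-) in cluster 10 and 315 ± 80.6 (hCD2+) and 447 ± 114 CPM (hCD2-) in cluster 11. Id2 stood at 2074 ± 355 CPM in hCD2- cells of cluster 10 and 1481 ± 196 CPM in those of cluster 11, and Bcl6 at 215 ± 59.2 and 102 ± 20.8 CPM. Cluster 10 thus shared high Irf8 and low Zeb2 with the cDC1-like class, and cluster 11 shared high Irf4 and Zeb2 with the cDC2-like class, as levels with no test. The summed cDC1 markers lay at 167 to 458 CPM in hCD2- cells of cluster 10 and 67.1 to 250.1 CPM in those of cluster 11, and the cDC2 markers at 49.7 to 125 and 168 to 250.3 CPM.

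**Figure D3:**
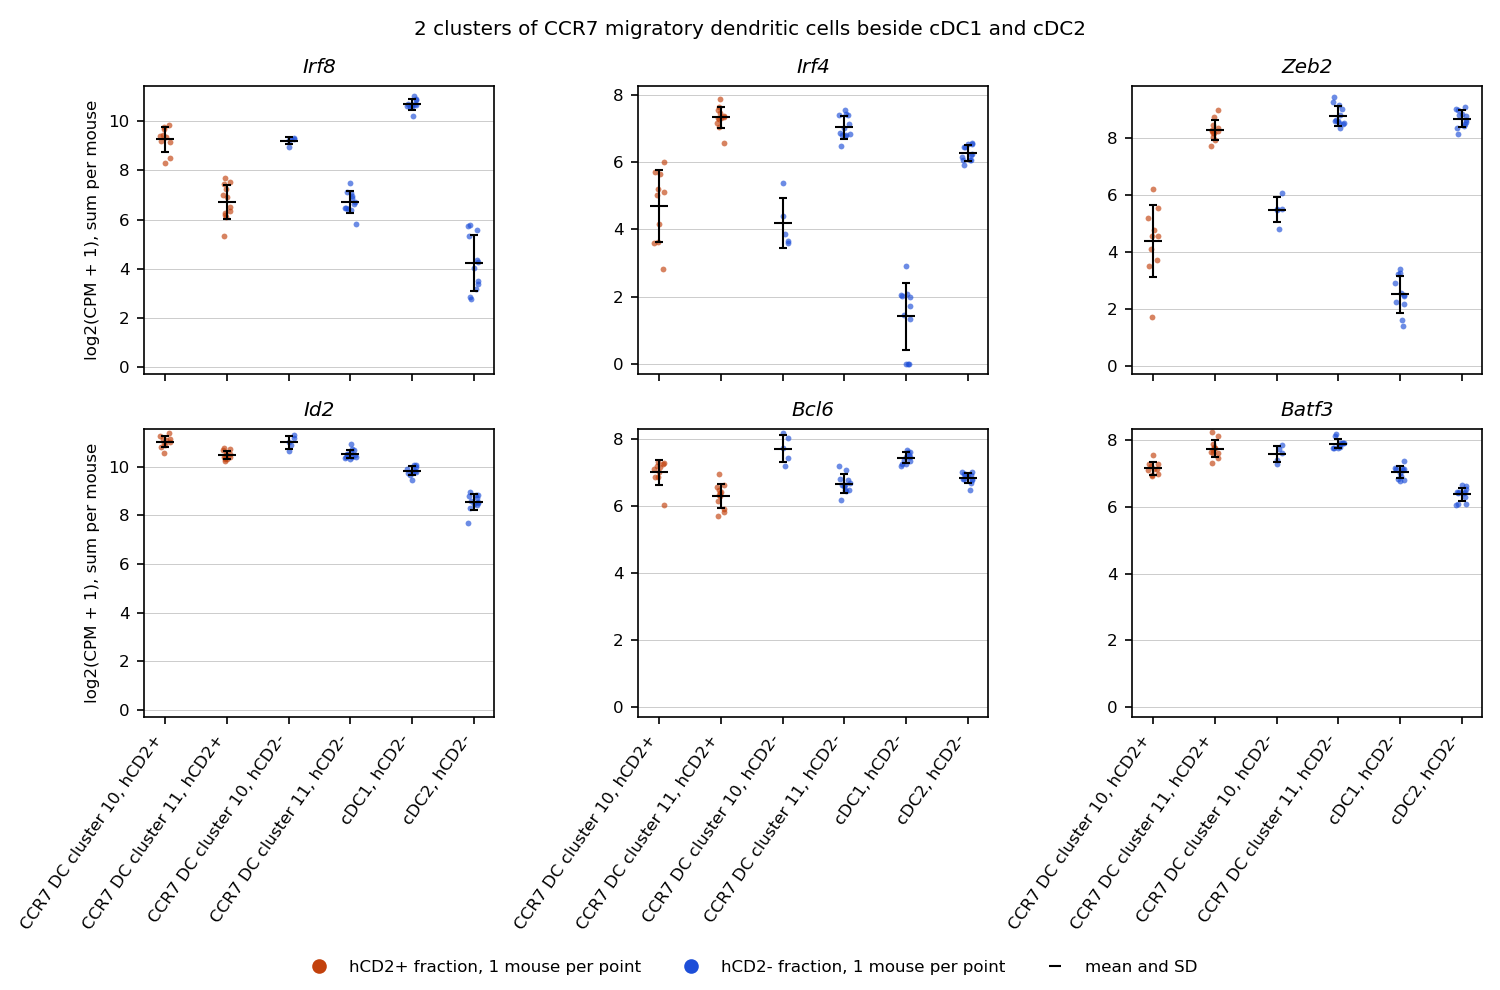
Levels of Irf8, Irf4, Zeb2, Id2, Bcl6 and Batf3 as log2(CPM + 1) in clusters 10 and 11 of the CCR7 DC-like class (hCD2+, then hCD2-), beside hCD2- cDC1-like and cDC2-like cells, 1 point per mouse, with mean and SD. Irf8 is higher in cluster 10 (646 against 116 CPM in hCD2+ cells), and Irf4 and Zeb2 are higher in cluster 11.

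In the hCD2+ fraction, where Prdm16 or Aire DC-like and ILC3 or LTi-like cells are the most frequent named classes, Spi1, Irf8 and Irf4 separated them and Zbtb46 overlapped. Against ILC3 or LTi-like cells, 5 factors were higher and 2 lower in Prdm16 or Aire DC-like cells, where 81.7% (41.0% higher, 40.7% lower) of 11185 genes were called (median absolute log2 fold change 0.53 over the members and 0.57 over all genes tested). Spi1 lay at 393 to 486 CPM with a median of 452 in the Prdm16 or Aire DC-like class, against 27.7 to 49.8 CPM with a median of 36.8 in the ILC3 or LTi-like class. The 12 mice of each did not overlap (3.71 ± 0.07, edgeR adjusted p = 2.16e-27, higher in 12 of 12 mice). Irf8 lay at 315 to 443 CPM with a median of 378, against 21.3 to 43.9 CPM with a median of 26.3 (3.88 ± 0.11, edgeR adjusted p = 2.02e-23, higher in 12 of 12 mice), and Irf4 at 14.8 to 31.5 CPM with a median of 25.6, against 0.255 to 1.86 CPM with a median of 0.967 (4.74 ± 0.17, edgeR adjusted p = 2.31e-20, higher in 12 of 12 mice), both without overlap. Id2 was higher by 0.58 ± 0.04 without overlap and Batf3 by 0.36 ± 0.05 with overlap, and both were higher in 12 of 12 mice. Zbtb46 gave 0.09 ± 0.05, edgeR adjusted p = 0.0669, CPM higher in 5 of 12 mice, and its adjusted p was 0.0289 with the mouse as a block and 0.0138 in thinned cells. Zeb2 gave -0.10 ± 0.08 (edgeR adjusted p = 0.26), but passed without TMM (-0.24, edgeR adjusted p = 0.00679) and without cluster 3 of the Prdm16 or Aire DC-like class (-0.89, edgeR adjusted p = 1.20e-09). Without that cluster Zeb2 lay at 79.2 to 147 CPM in Prdm16 or Aire DC-like cells, which did not overlap the 187 to 279 CPM of ILC3 or LTi-like cells. Nfil3 gave 0.04 ± 0.06 (edgeR adjusted p = 0.587).

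Klf4 was lower in Prdm16 or Aire DC-like than in ILC3 or LTi-like cells (-1.04 ± 0.19, edgeR adjusted p = 1.12e-05, lower in 12 of 12 mice), and Bcl6 was lower (-0.48 ± 0.10) on the log2 scale. Immediate early and heat shock genes moved in the same comparison, 3 higher and 9 lower of 14, with a summed level of 6229 to 9228 CPM in Prdm16 or Aire DC-like and 12380.0 to 21528 CPM in ILC3 or LTi-like cells. Their part in the Klf4 difference was not tested. In the related list, 12 were higher and 11 lower of 25 tested. Cbfa2t3, a corepressor of blood cell development, was higher by 5.41 ± 0.09 and Etv3 by 2.90 ± 0.06, and Runx1 was lower (-4.68 ± 0.11) and Cebpb (-3.71 ± 0.09). T cell markers summed to 25.8 to 107 CPM in the Prdm16 or Aire DC-like and 244 to 394 CPM in the ILC3 or LTi-like class, and ILC3 markers to 796 to 983 and 6504 to 7549 CPM.

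Set against the other dendritic classes of the hCD2+ fraction, the Prdm16 or Aire DC-like cells combined an intermediate Irf8 with low Bcl6 and, beside cDC2-like and CCR7 DC-like cells, low Irf4. The sums of this class serve all 4 of its comparisons. Against cDC2-like cells 6 factors were higher and 4 lower, where 58.3% (30.7% higher, 27.6% lower) of 10697 genes were called (median absolute log2 fold change 1.29 over the members and 0.49 over all genes tested). Irf8 had 385 ± 37.3 CPM in 12 mice for the Prdm16 or Aire DC-like class, against 45.3 ± 32.8 CPM in 7 mice for cDC2-like cells (3.13 ± 0.25, edgeR adjusted p = 2.36e-10, higher in 7 of 7 mice). Id2 was higher by 1.58 ± 0.13, Nfil3 by 1.37 ± 0.12, Batf3 by 1.04 ± 0.09 and Zbtb46 by 0.55 ± 0.07, each without overlap, and Spi1 by 0.20 ± 0.06 with overlap. Klf4 was lower (-1.45 ± 0.18) and Bcl6 (-1.28 ± 0.13) on the log2 scale without overlap, and Irf4 (-1.30 ± 0.20) and Zeb2 (-1.01 ± 0.16) with overlap. Spi1 did not pass without TMM (0.13, edgeR adjusted p = 0.082) or in thinned cells (0.11, edgeR adjusted p = 0.492), and Zeb2 stood at -1.81 without cluster 3. The related regulators Relb (1.36 ± 0.08) and Spib (1.31 ± 0.15) were higher, and Runx1 (-4.45 ± 0.16) and Rbpj (-0.83 ± 0.07) lower; in all, 10 were higher and 7 lower of 24 tested.

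Against cDC1-like cells, 6 factors were higher and 2 lower in Prdm16 or Aire DC-like cells, where 54.3% (31.8% higher, 22.5% lower) of 11491 genes were called, with 3 mice in the cDC1-like group. Irf8 had 385 ± 37.3 CPM in Prdm16 or Aire DC-like and 1657 ± 187 CPM in cDC1-like cells (-2.09 ± 0.08, edgeR adjusted p = 7.72e-14, lower in 3 of 3 mice). Bcl6 was lower (-1.54 ± 0.15) on the log2 scale. Zeb2 was higher by 4.37 ± 0.33, Nfil3 by 2.63 ± 0.14 and Zbtb46 by 0.74 ± 0.12, without overlap and in 3 of 3 mice. Irf4 had 2 UMIs in the cDC1-like sums, a ratio of pooled levels of 19.8 (95% counting interval 5.47 to 164). Spi1 was higher by 0.24 ± 0.07 and Id2 by 0.22 ± 0.08. With the mouse as a block, a fit over only the 3 mice with both classes, neither passed (edgeR adjusted p 0.133 for Spi1 and 0.182 for Id2). Without the cDC1-like sum of hashtag 5 the edgeR adjusted p of Id2 was 0.0697. Batf3 (0.15 ± 0.11) and Klf4 (0.01 ± 0.28) did not pass. In thinned cells 4 of 10 factors and 2350 of 7197 genes tested were called. Spi1, Id2, Zbtb46 and Irf4 did not pass there (edgeR adjusted p 0.0752 to 0.648). Without cluster 3 Zeb2 stood at 3.57. In the related list, 16 were higher and 4 lower of 25 tested, with Relb (2.78 ± 0.14) and Runx2 (4.39 ± 0.25) higher and Runx1 (-5.10 ± 0.17) and Mycl (-3.32 ± 0.13) lower.

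Against CCR7 DC-like cells, 2 factors were higher and 6 lower in the Prdm16 or Aire DC-like class, where 74.5% (40.3% higher, 34.2% lower) of 9942 genes were called (median absolute log2 fold change 0.65 over the members and 0.57 over all genes tested). The median log2 fold change of all genes was 0.38 without TMM and 0.07 with it. Irf4 lay at 14.8 to 31.5 CPM with a median of 25.6, against 71.7 to 138 CPM with a median of 113 in CCR7 DC-like cells, without overlap (-2.47 ± 0.12, edgeR adjusted p = 2.45e-17, lower in 12 of 12 mice). Bcl6 was lower (-1.47 ± 0.10) and Id2 (-0.78 ± 0.06) without overlap, and Zbtb46 (-0.76 ± 0.06) and Batf3 (-0.54 ± 0.08) with overlap. Nfil3 was higher by 0.88 ± 0.08 and Spi1 by 0.52 ± 0.05, both without overlap. Zeb2 was called lower (-0.30 ± 0.12, edgeR adjusted p = 0.0246), but stood at 0.01 without TMM (edgeR adjusted p = 0.911) and was lower by CPM in 6 of 12 mice. That call was also lost with DESeq2, without the filter on low counts and in thinned cells (adjusted p 0.0599, 0.0722 and 0.262 in that order), while without cluster 3 Zeb2 stood at -1.10 (edgeR adjusted p = 1.16e-08). Irf8 gave -0.06 ± 0.15 (edgeR adjusted p = 0.747) and Klf4 0.16 ± 0.22 (edgeR adjusted p = 0.517), which passed without TMM (0.48, edgeR adjusted p = 0.0473). Of the related regulators, 8 were higher and 16 lower of 25 tested. Runx3 (2.12 ± 0.09) and Ikzf1 (1.55 ± 0.08), which encodes Ikaros, were higher, and Rbpj (-3.04 ± 0.10) and Etv3 (-1.83 ± 0.06) were lower. CCR7 markers summed to 1779.7 to 2402 CPM in Prdm16 or Aire DC-like and 13112 to 16536 CPM in CCR7 DC-like cells.

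Inside the Prdm16 or Aire DC-like class, the cluster with the highest Aire (cluster 5) was set against the cluster with the highest Prdm16 (cluster 6) in 12 hCD2+ mice each. Here 5 factors were higher and 1 lower, where 67.1% (33.0% higher, 34.1% lower) of 8269 genes were called (median absolute log2 fold change 0.51 over the members and 0.46 over all genes tested), and the median of all genes was -0.27 without TMM and -0.03 with it. Spi1 lay at 245 to 314 CPM with a median of 294 in cluster 5, against 519 to 638 CPM with a median of 608 in cluster 6, without overlap (-0.83 ± 0.05, edgeR adjusted p = 1.36e-14, lower in 12 of 12 mice). Batf3 lay at 183 to 304 CPM with a median of 222, against 120.4 to 154 CPM with a median of 132, without overlap (1.01 ± 0.08, edgeR adjusted p = 7.07e-13, higher in 12 of 12 mice). Zeb2 was higher by 1.31 ± 0.13, Klf4 by 1.17 ± 0.22, Zbtb46 by 0.58 ± 0.06 and Irf8 by 0.44 ± 0.07, with overlap; in thinned cells Irf8 did not pass (0.17, edgeR adjusted p = 0.122). Irf4 (-0.38 ± 0.19), Nfil3 (0.15 ± 0.08) and Bcl6 (0.09 ± 0.13) did not pass, nor did Id2 (0.10 ± 0.06). Without TMM Id2 stood at -0.14 (edgeR adjusted p = 0.0486) and Irf4 at -0.62 (edgeR adjusted p = 0.00507). CCR7 markers summed to 3841 to 4861 CPM in cluster 5 and 881 to 1229 CPM in cluster 6, and immediate early genes to 4419.6 to 7790.3 and 7401 to 10856 CPM; their part was not tested. Of the related regulators, 12 were higher and 4 lower of 22 tested, with Etv3 (2.50 ± 0.09) and Relb (1.28 ± 0.05) higher and Runx3 (-1.65 ± 0.07) and Ikzf1 (-1.09 ± 0.11) lower.

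Cluster 3, with the fewest markers of the class, had other levels of several factors. Its hCD2+ cells had 649.8 ± 226 CPM of Zeb2, against 178 ± 50.5 in cluster 5 and 84.5 ± 16.7 in cluster 6. Irf8 stood at 81.0 ± 50.7 CPM in cluster 3, 494 ± 62.9 in cluster 5 and 429.6 ± 36.3 in cluster 6, and Spi1 at 156 ± 19.7, 282 ± 25.2 and 594 ± 40.3 CPM. Klf4 stood at 280.1 ± 98.1, 119 ± 42.5 and 62.2 ± 29.4 CPM. Each value is a level over 12 mice with no test. Cluster 13 had 6 CCR7 markers and was left without a class, since a gene of the Prdm16 or Aire list and none of the CCR7 list was among its top 10 genes by fold; it had 764 ± 91.8 CPM of Irf8, 401 ± 36.1 of Spi1, 83.8 ± 24.4 of Irf4 and 1727 ± 200.5 of Id2 (n = 8 hCD2+ mice).

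**Figure D4:**
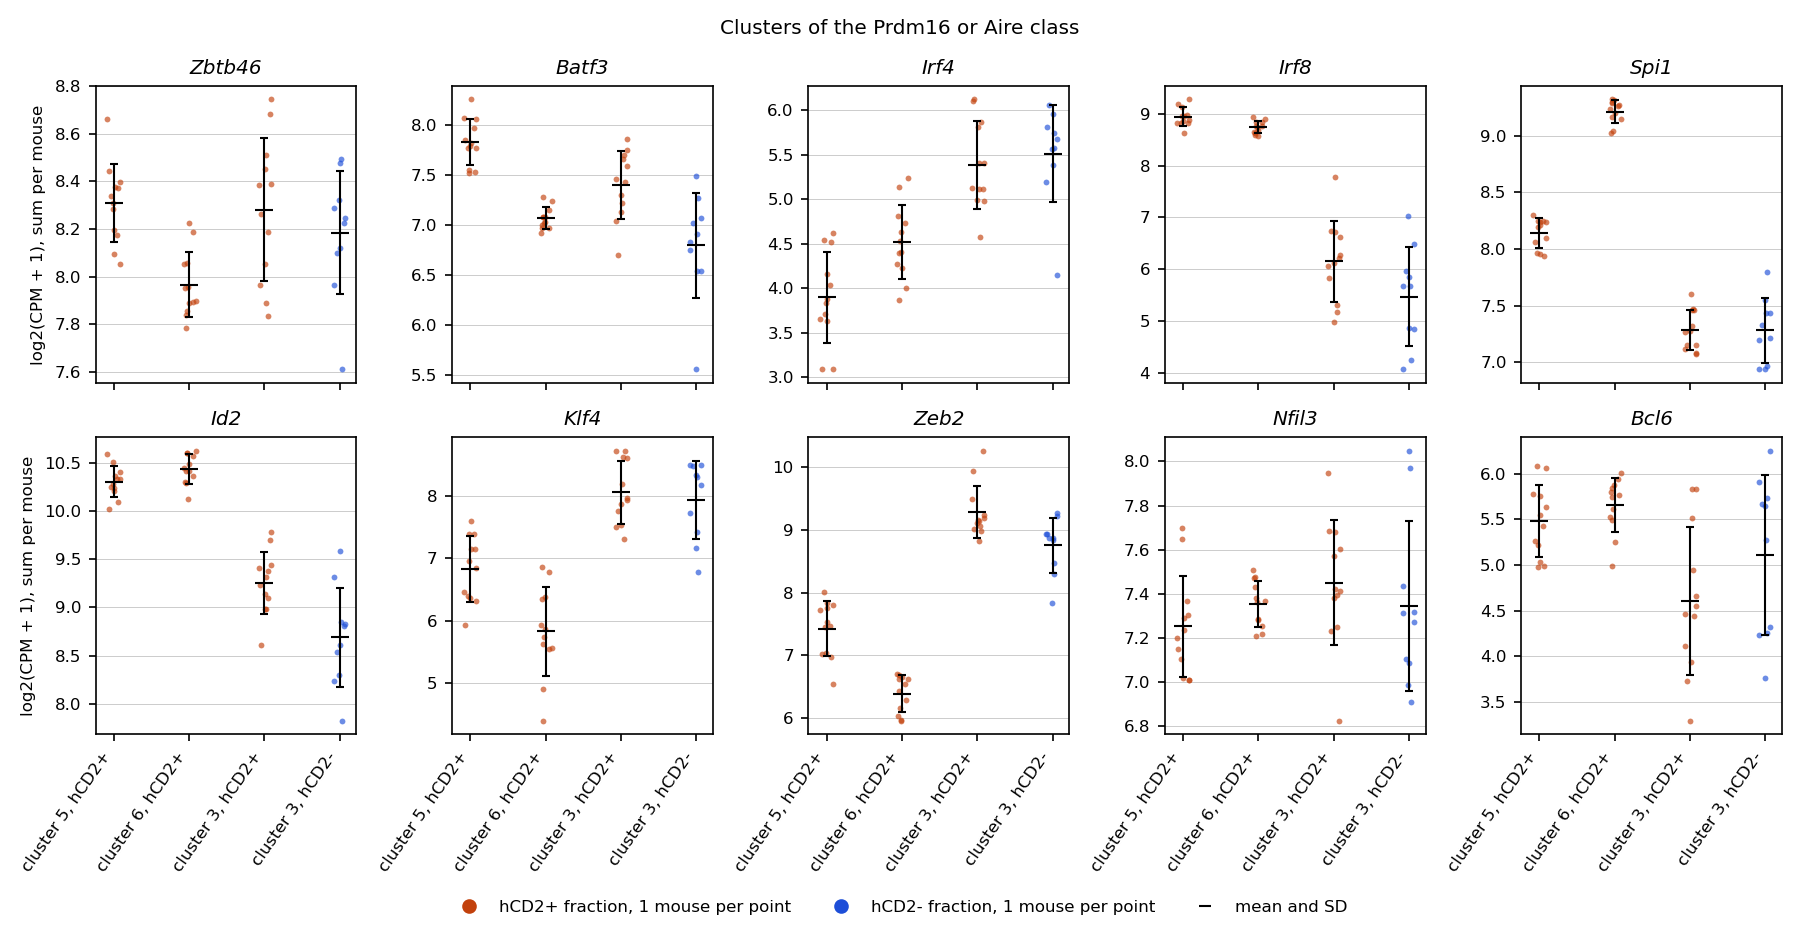
Levels of the 10 factors as log2(CPM + 1) in clusters 5, 6 and 3 of the Prdm16 or Aire DC-like class, 1 point per mouse, with mean and SD; hCD2- cells are shown for cluster 3. Spi1 is highest in cluster 6, Batf3 highest in cluster 5, and Zeb2 highest and Irf8 lowest in cluster 3.

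The fractions were compared within 4 classes that both held. In the Prdm16 or Aire DC-like class 4 factors were higher and 3 lower in hCD2+ than in hCD2- cells, where 51.0% (25.8% higher, 25.1% lower) of 10168 genes were called (median absolute log2 fold change 0.97 over the members and 0.38 over all genes tested). Irf8 had 385 ± 37.3 CPM in 12 hCD2+ mice and 79.3 ± 24.0 CPM in 10 hCD2- mice (2.38 ± 0.11, edgeR adjusted p = 2.95e-15, higher in 10 of 10 mice), and Spi1 444 ± 27.2 and 167 ± 35.1 CPM (1.47 ± 0.09). Id2 was higher by 1.41 ± 0.12 and Batf3 by 0.51 ± 0.12, and Klf4 was lower (-1.08 ± 0.19), Zeb2 (-1.04 ± 0.13) and Irf4 (-0.89 ± 0.15) on the log2 scale. The class has another makeup in each fraction: 192 of its 208 hCD2- cells lay in cluster 3, against 262 of its 1262 hCD2+ cells. Its own markers summed to 3649 to 4693 CPM in hCD2+ and 292 to 1186 CPM in hCD2- cells. In cluster 3 alone edgeR called 0 of 10 factors (3 at an unadjusted p under 0.05) and 336 of 6204 genes tested. Spi1 (-0.02), Zeb2 (0.53) and Klf4 (0.09) turned sign there. Over the whole class Zbtb46 passed only without TMM (-0.18, edgeR adjusted p = 0.0248). Of the related regulators over the whole class, 7 were higher and 6 lower of 24 tested, with Cbfa2t3 (1.55 ± 0.10) and Stat5a (1.38 ± 0.12) higher and Bach2 (-2.42 ± 0.17) and Etv6 (-0.33 ± 0.07) lower.

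In CCR7 DC-like cells Irf8 was higher in the hCD2+ fraction and Zeb2, Spi1, Batf3 and Zbtb46 lower, 5 of 10 factors, where 17.8% (9.46% higher, 8.38% lower) of 8196 genes were called (median absolute log2 fold change 0.23 over the members and 0.16 over all genes tested). Irf8 lay at 148 to 494 CPM with a median of 321 in hCD2+ cells, against 98.4 to 252 CPM with a median of 173 in hCD2- cells, with overlap (0.87 ± 0.18, edgeR adjusted p = 8.39e-04, higher in 11 of 12 mice). Zeb2 lay at 114 to 316 CPM with a median of 194, against 300.3 to 524 CPM with a median of 331 (-0.93 ± 0.13, edgeR adjusted p = 6.44e-06, lower in 12 of 12 mice). Spi1 was lower (-0.24 ± 0.06), Batf3 (-0.27 ± 0.08) and Zbtb46 (-0.22 ± 0.07) on the log2 scale. Cluster 10 made up 196 of 526 hCD2+ and 143 of 952 hCD2- cells of the class. In cluster 11 alone 651 of 7253 genes tested were called, and of those 5 factors only Zeb2 (-0.50, edgeR adjusted p = 0.0189). Irf8 gave 0.16 there (edgeR adjusted p = 0.682), with 116 ± 53.2 CPM in hCD2+ and 108 ± 33.2 CPM in hCD2- cells. Batf3, Spi1 and Zbtb46 did not pass there either (edgeR adjusted p 0.233 to 0.455), and Nfil3 was called lower (-0.41, edgeR adjusted p = 0.0313). In thinned cells of the whole class Irf8 and Zeb2 were called, beside 589 of 3682 genes tested. Klf4 gave -0.46 ± 0.25, edgeR adjusted p = 0.222, lower in 10 of 12 mice, and with the mouse as a block 0.00727. In the related list, 1 was higher and 10 were lower of 23 tested, with Cebpb (0.84 ± 0.27) higher and Runx2 (-0.61 ± 0.10) and Runx3 (-0.63 ± 0.11) among the lower.

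ILC3 or LTi-like cells differed in 2 of the 9 factors tested, where 4.83% (1.77% higher, 3.06% lower) of 9185 genes were called; Irf4 fell under the filter on low counts. Id2 lay at 804 to 1035 CPM with a median of 910.3 in hCD2+ cells, against 512 to 866 CPM with a median of 628 in hCD2- cells (0.44 ± 0.07, edgeR adjusted p = 2.36e-04, higher in 12 of 12 mice). Zbtb46 lay at 249.8 to 337 CPM with a median of 287, against 249 to 487 CPM with a median of 338 (-0.35 ± 0.09, edgeR adjusted p = 0.0121, lower in 11 of 12 mice). Both pairs overlapped. Cluster 0 held 1310 of 3062 hCD2+ and 77 of 247 hCD2- cells of the class, and cluster 1 held 680 and 84. In hCD2+ cells Id2 stood at 1112 ± 142 CPM in cluster 0 and 598 ± 89.1 CPM in cluster 1. Zbtb46 stood there at 235 ± 31.6 and 364 ± 58.7 CPM (n = 12 mice each). In cluster 0 of 3 hCD2- mice Id2 stood at 900 ± 180 and Zbtb46 at 286 ± 31.0 CPM. The part of this makeup in both calls was not tested. Zeb2 gave 0.38 ± 0.12, edgeR adjusted p = 0.0677, higher in 11 of 12 mice, and with the mouse as a block 0.0138. DESeq2 called 4 of 10 factors and 810 of 19918 genes with at least 1 UMI. Zbtb46 did not pass without the filter on low counts (edgeR adjusted p = 0.0514) or with at least 20 cells per mouse (edgeR adjusted p = 0.115). Of the related regulators, 0 were higher and 3 lower of 22 tested, among them Runx3 (-0.35 ± 0.08) and Runx2 (-0.38 ± 0.09). In cDC2-like cells (7 hCD2+ and 12 hCD2- mice) edgeR called 0 of 10 factors, 1 had an unadjusted p under 0.05, and 11.4% (6.24% higher, 5.14% lower) of 9314 genes were called. That factor was Spi1 (-0.17 ± 0.06, edgeR adjusted p = 0.0695, lower in 6 of 7 mice), which passed with DESeq2 (-0.17, adjusted p = 0.0279) and without the filter on low counts (-0.22, edgeR adjusted p = 0.0499). With the mouse as a block, a fit over only the 7 mice with both fractions, 353 genes were called. Among related regulators, 4 were higher and 4 lower of 24 tested, with Runx2 (0.86 ± 0.19) and Tcf12 (0.38 ± 0.10) higher and Runx3 (-0.35 ± 0.08) and Rbpj (-0.35 ± 0.09) lower.

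Klf4 varied from mouse to mouse together with immediate early genes, the first genes a stimulated or stressed cell turns on. In cDC2-like hCD2- cells Klf4 ran at 138 to 469.8 CPM with a median of 299.7 over 12 mice, while the 14 immediate early and heat shock genes summed to 4938 to 11447 CPM. Over these 12 mice the Pearson r of both on the log2(CPM + 1) scale was 0.912 (permutation p = 0.000180, adjusted over 6 relations 0.00108) and Spearman's rho 0.874 (permutation p = 0.000560, adjusted 0.00124). Without the 2 mice farthest from the median of the summed genes r was 0.921 over 10 mice. The relation was computed in 6 class and fraction groups, chosen after the data were seen, which share the 12 mice. In hCD2+ cells r was 0.809 (permutation p = 0.00224, adjusted 0.00288) in the Prdm16 or Aire DC-like, 0.805 (0.00240, adjusted 0.00288) in the CCR7 DC-like and 0.834 (0.00114, adjusted 0.00228) in the ILC3 or LTi-like class. In hCD2- cells r was 0.823 (0.000800, adjusted 0.00228) in the CCR7 DC-like and 0.768 (0.00474, adjusted 0.00474) in the ILC3 or LTi-like class. Spearman's rho in those 5 groups was 0.678 to 0.874 (permutation p 0.000360 to 0.0197, adjusted 0.00124 to 0.0197). Without the 2 farthest mice r was 0.580 to 0.818 in them. Each of the 6 groups lies within 1 library, and no other batch is given by the labels. The summed level went with the hashtag number. Except in hCD2+ CCR7 DC-like cells, every mouse of hashtags 1 to 6 lay below every mouse of hashtags 7 to 12. In cDC2-like hCD2- cells these were 4938 to 7671 against 8837 to 11447 CPM, with Klf4 at 138 to 298 against 301 to 470 CPM. The permutations treated the 12 mice as exchangeable, and the part of this split in r was not tested.

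**Figure D5:**
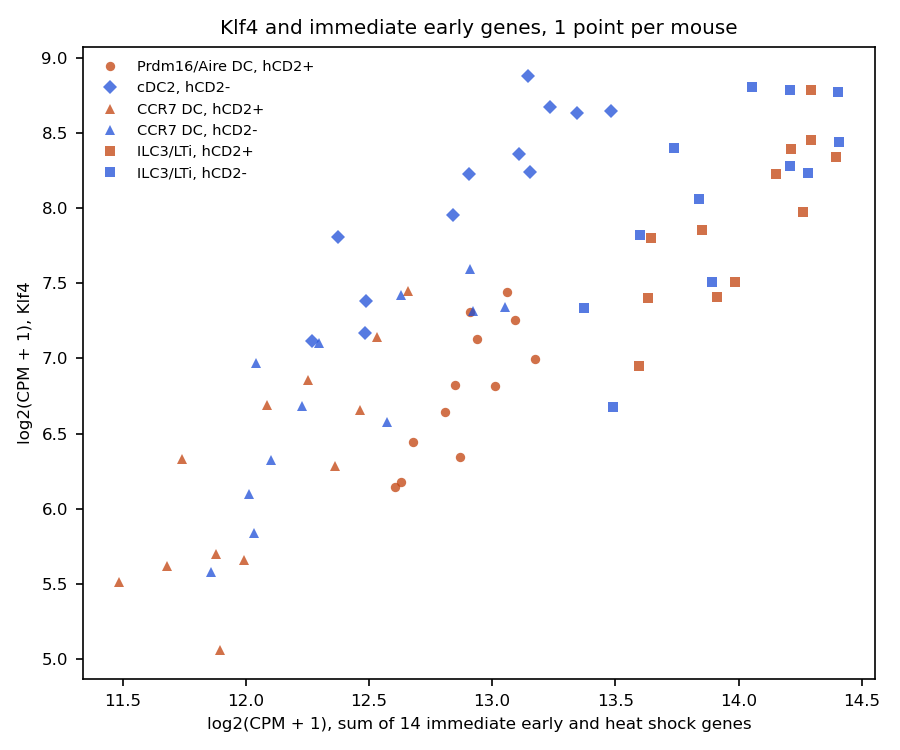
Klf4 level against the summed level of 14 immediate early and heat shock genes, both as log2(CPM + 1), 1 point per mouse, in 6 class and fraction groups of 12 mice. Klf4 is higher in mice with more immediate early RNA in each group, with Pearson r of 0.768 to 0.912.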

How the data were processed

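Both 10x 3' libraries, 1 per sorted fraction, were read as deposited. Per the submitters' processing notes they were made with Cell Ranger 8.0.1 on mm10; the deposited values are UMI counts per gene and barcode, not normalized. The authors also deposited, per called cell, its hashtag with a posterior probability, a fraction made by Cell Ranger, which was used as they assigned it. Called cells numbered 8801 for hCD2+ (178129025 UMIs) and 5603 for hCD2- (150904166 UMIs).

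Kept cells had 1 hashtag, 500 genes or more and no more than 10% of their UMIs from mitochondrial genes; 806 hCD2+ and 465 hCD2- multiplets and cells without a hashtag were left out, and no further doublet caller was run. Leiden clustering at resolution 1.0 used scanpy 1.11.5 on the joined libraries, with 15 neighbours in 30 principal components of 2000 variable genes, without the 10 factors, 28 related regulators and 14 immediate early genes. A class needed at least 3 markers elevated 2-fold and in 10% of a cluster's cells. Clusters with at least 3 T cell markers beside dendritic ones, with a median of UMIs under 1/3 of their libraries', or with more genes of another list than of their own among the top 10 by fold stayed unnamed.

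Counts were summed per mouse, class and fraction (at least 10 cells) and tested with edgeR 4.0.16 (quasi-likelihood, TMM, filterByExpr) in R 4.3.3. Zbtb46, Batf3 and the other members are always named; of the related regulators, those with the 2 smallest adjusted p in each direction. The members and lists were chosen with earlier results of these data known. The same hashtag was taken to mark the same animal in both libraries. Over 6280 genes, centred over the 12 samples of each fraction, equal hashtags deviated together (r 0.180 to 0.599, above 0.1 in 12 of 12). Unequal ones had a mean of -0.0352, which the centring ties to the mean of equal ones, so that it is no separate reference. Whether equal hashtags share something other than the animal was not tested. In 6 of 12 cases an hCD2+ sample was most like the hCD2- sample of its own hashtag. Counts of mice and block fits between fractions rest on this pairing. Alternatives were DESeq2 1.42.0, RLE factors, no TMM, no filter, at least 20 cells, thinning to 5000 UMIs and the mouse as a block. Others were other cell filters and resolution, clusters left out, and the sum of 1 mouse left out. The block fit used only mice with both groups, and thinning only cells of at least 5000 UMIs. On simulated data for cDC1-like against cDC2-like cells (9092 genes, 200 changed 2-fold), 98% were recovered and 3.448% of calls were false. Gene positions are from GENCODE on GRCm38.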

Additional observations from a re-analysis of the deposited data

Results flagged for a closer look

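In 70 factor and group sets of 4 to 10 mice, 7 had a mouse far from all others by Dixon's criterion, where chance flags about 1 in 20. In cluster 10 of the CCR7 DC-like class, from sums of few cells, 4 of these were found. Zbtb46 was 992 CPM in the hCD2- cells of mouse 12 (16 cells), with the next of 5 mice at 447 CPM. Irf8 was 490.0 CPM in the same cells, with the next mouse at 601 CPM above it. Batf3 was 188 CPM in the hCD2+ cells of mouse 1 (17 cells), with the next of 10 mice at 155 CPM. Bcl6 was 63.7 CPM in the hCD2+ cells of mouse 2 (12 cells), with the next of 10 mice at 114 CPM.

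Batf3 was 10.9 CPM in the pDC-like cells of mouse 5 (14 cells), with the next of 5 mice at 2.85 CPM. Spi1 was 514 CPM in the hCD2+ cDC2-like cells of mouse 8 (19 cells), with the next of 7 mice at 419 CPM. Zeb2 was 379 CPM in cluster 13 of mouse 10 (15 cells), with the next of 8 hCD2+ mice at 186 CPM.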

How the results depend on the processing

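Of 997 refits of a factor in a comparison, 937 kept direction and side of the threshold, 35 lost the call, 17 gained one and 8 turned sign; all 290 levels moved by less than the spread between mice. Thinning cells to 5000 UMIs lowers the counts in every sum, and fewer genes then passed the filter and were tested. It left 1966 of 3724 genes tested called in cDC1-like against cDC2-like cells and 2158 of 5412 in pDC-like against cDC2-like cells. It left 3586 of 4906 and 2538 of 3301 in CCR7 DC-like against cDC2-like and cDC1-like cells. For the Prdm16 or Aire DC-like class it left 5668 of 7817 against ILC3 or LTi-like and 3339 of 5170 against CCR7 DC-like cells. There it also left 2517 of 6093 against cDC2-like and 2350 of 7197 against cDC1-like cells, 4 factors in the last. It left 2251 of 3478 between clusters 5 and 6. Between fractions it left 589 of 3682 in CCR7 DC-like (2 factors) and 135 of 6025 in ILC3 or LTi-like cells. It left 237 of 4600 in cDC2-like and 1988 of 5468 in Prdm16 or Aire DC-like cells between fractions.

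Without TMM, the call of Bcl6 in CCR7 DC-like against cDC2-like cells was lost (0.016). Zeb2 was -0.13 in CCR7 DC-like against cDC2-like and 0.015 in Prdm16 or Aire DC-like against CCR7 DC-like cells, Spi1 was -0.26 in CCR7 DC-like against cDC1-like cells (-0.24 in thinned cells), and Id2 was -0.14 between clusters 5 and 6; the cause was not tested. Between fractions, cluster 11 alone gave 651 of 7253 genes and 2 of 10 factors, of which 1, Zeb2, was called in the whole class. Cluster 3 alone gave 336 of 6204 genes and 0 of 10 factors, with Zeb2 at 0.53, Spi1 at -0.017 and Klf4 at 0.086. In ILC3 or LTi-like cells DESeq2 called 810 of 19918 genes and 4 of 10 factors. At least 20 cells per mouse left 422 of 10548 genes and 1 of 9 factors called there.

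The mouse as a replicate block, fitted only over mice with both groups, moved the cDC2-like count between fractions to 353 genes. It changed the call of Klf4 in pDC-like and CCR7 DC-like cells and of Zeb2 in ILC3 or LTi-like cells. In Prdm16 or Aire DC-like cells it changed those of Zbtb46, Spi1 and Id2, as given above. No other call of a factor changed. Leaving out 1 pDC-like sum gave 4652 to 4978 genes and 9 to 10 factors against cDC2-like cells. Leaving out 1 cDC1-like sum gave 5301 to 5839 genes and 7 to 8 factors for Prdm16 or Aire DC-like against cDC1-like cells. No refit with at least 20 cells could be made for pDC-like against cDC2-like, Prdm16 or Aire DC-like against cDC1-like and cDC2-like, or cDC2-like cells between fractions, since too few mice remained. Depth limits Irf4 and Zeb2 in cDC1-like, Irf4 in ILC3 or LTi-like and Batf3 in pDC-like cells, where few UMIs were counted.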
